A study of Mus musculus with 38 samples.

Results

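Wild-type mouse intestinal organoids were compared after growth with GW501516 (GW) or with its solvent, DMSO, across all genes of the deposited count table. The 10 samples, 5 with each treatment, were taken from the 38 of the series by the treatment and genotype in the names of their columns, and columns with the letters KD were left out. All the organoids were grown from intestinal crypts of C57BL6 mice, embedded in 65% matrigel, and collected after 8 days and 2 passages, in 1 uM GW with 0.1% DMSO or in 0.1% DMSO alone. Wild-type mice carried no altered Ppard or Ppara allele per the labels. The response was also set beside that of organoids labelled Ppard-fl/fl (D; 5 vehicle, 3 GW), Ppara-null (A; 5 and 5) and both (DA; 4 and 5), which got the same treatments. The labels name no recombinase for the floxed allele. A further GW sample titled as D has a genotype label that names both alleles, so it was put in no group. In D, 1 GW column with the suffix 2 was not used, although columns with that suffix were used in other groups. Of the wild-type columns, 1 of the 5 with GW (replicate 1 here) carries the suffix and none with vehicle does. What the suffix means is not given. Polyadenylated RNA, isolated with TRI reagent, was read by High Throughput 3′DGE, a method that counts tags near the 3′ end of transcripts, so that a level is not divided by transcript length and levels are compared here only within a gene.

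GW501516 is a synthetic agonist of PPARδ, a nuclear receptor that senses fatty acids. PPARδ and the related PPARα bind DNA as partners of the retinoid X receptor, at repeats of a short motif called PPAR response elements, and their targets include genes for the binding, transport and oxidation of fatty acids. In the intestine, which absorbs dietary fat, both receptors are expressed in the epithelium, and PPARδ activity has been linked to the behaviour of stem cells in the crypt.

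The 5 vehicle libraries held 444465 to 528776 counts and the 5 GW libraries 405302 to 506644. Genes with a count numbered 10374 to 10715 and 10083 to 10866, and mitochondrially encoded transcripts took 7.90% to 9.67% and 8.55% to 10.6% of counts. No difference between the treatments in these 3 measures passed an exact 2-sided permutation test over the 5 and 5 libraries (p = 0.190, 0.857 and 0.595, with adjusted p = 0.571, 0.857 and 0.857; the smallest p this design allows is 0.00794). Epithelial genes were abundant, and goblet, Paneth and enteroendocrine transcripts were present. Of 15 immune markers 12 had no count in any of the 10 libraries, as had 10 of 12 stromal markers, among them Col1a1 and Pdgfra, and 6 of 8 endothelial markers. The stem cell gene Lgr5 had 3 counts in 1 vehicle library, 1 count in 1 GW library and none in the other 8. The column names carry library numbers, 1 to 36 in 3 libraries of each treatment (replicates 1 to 3 here, in column order) and 37 to 60 in 2 of each (replicates 4 and 5), and what these numbers mean is not given. Xist exceeded the summed Y-linked counts in replicates 2 and 3 of each treatment, and the reverse held in the other 6. No label says that each library is a separate animal or culture, so a p-value here reflects the spread of these libraries, which may be technical.

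GW raised 20 of the 4902 genes tested (0.408%), at an adjusted p under 0.05, and lowered 0 (0%), in a fit over all 8 groups of the series. The genes described here are 19 of those 20. Many of them encode proteins that bind, store, transport or oxidise fatty acids, and others enzymes of aldehyde, steroid and retinoid metabolism. The rest include the enzymes Abhd6, Acot1 and Me1, the secreted proteins Angptl4 and Reg4, and the transcription factor Creb3l3. In 17 of the 20 every GW library lay above every vehicle library, which held for 35 of all genes tested (0.714%); the reverse held for 14 (0.286%), none of them called. At an unadjusted p under 0.05 there were 187 genes higher and 116 lower. Over all 4902 genes tested, 2505 were higher and 2395 lower, with a median log2 fold change of 0.01. The counts given below for each list are to be read beside these. Lower calls numbered 2 by DESeq2 and 1 by limma-trend. Because organoids were measured in bulk, more cells that express a gene and more RNA per cell cannot be told apart.

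**Figure D1:**
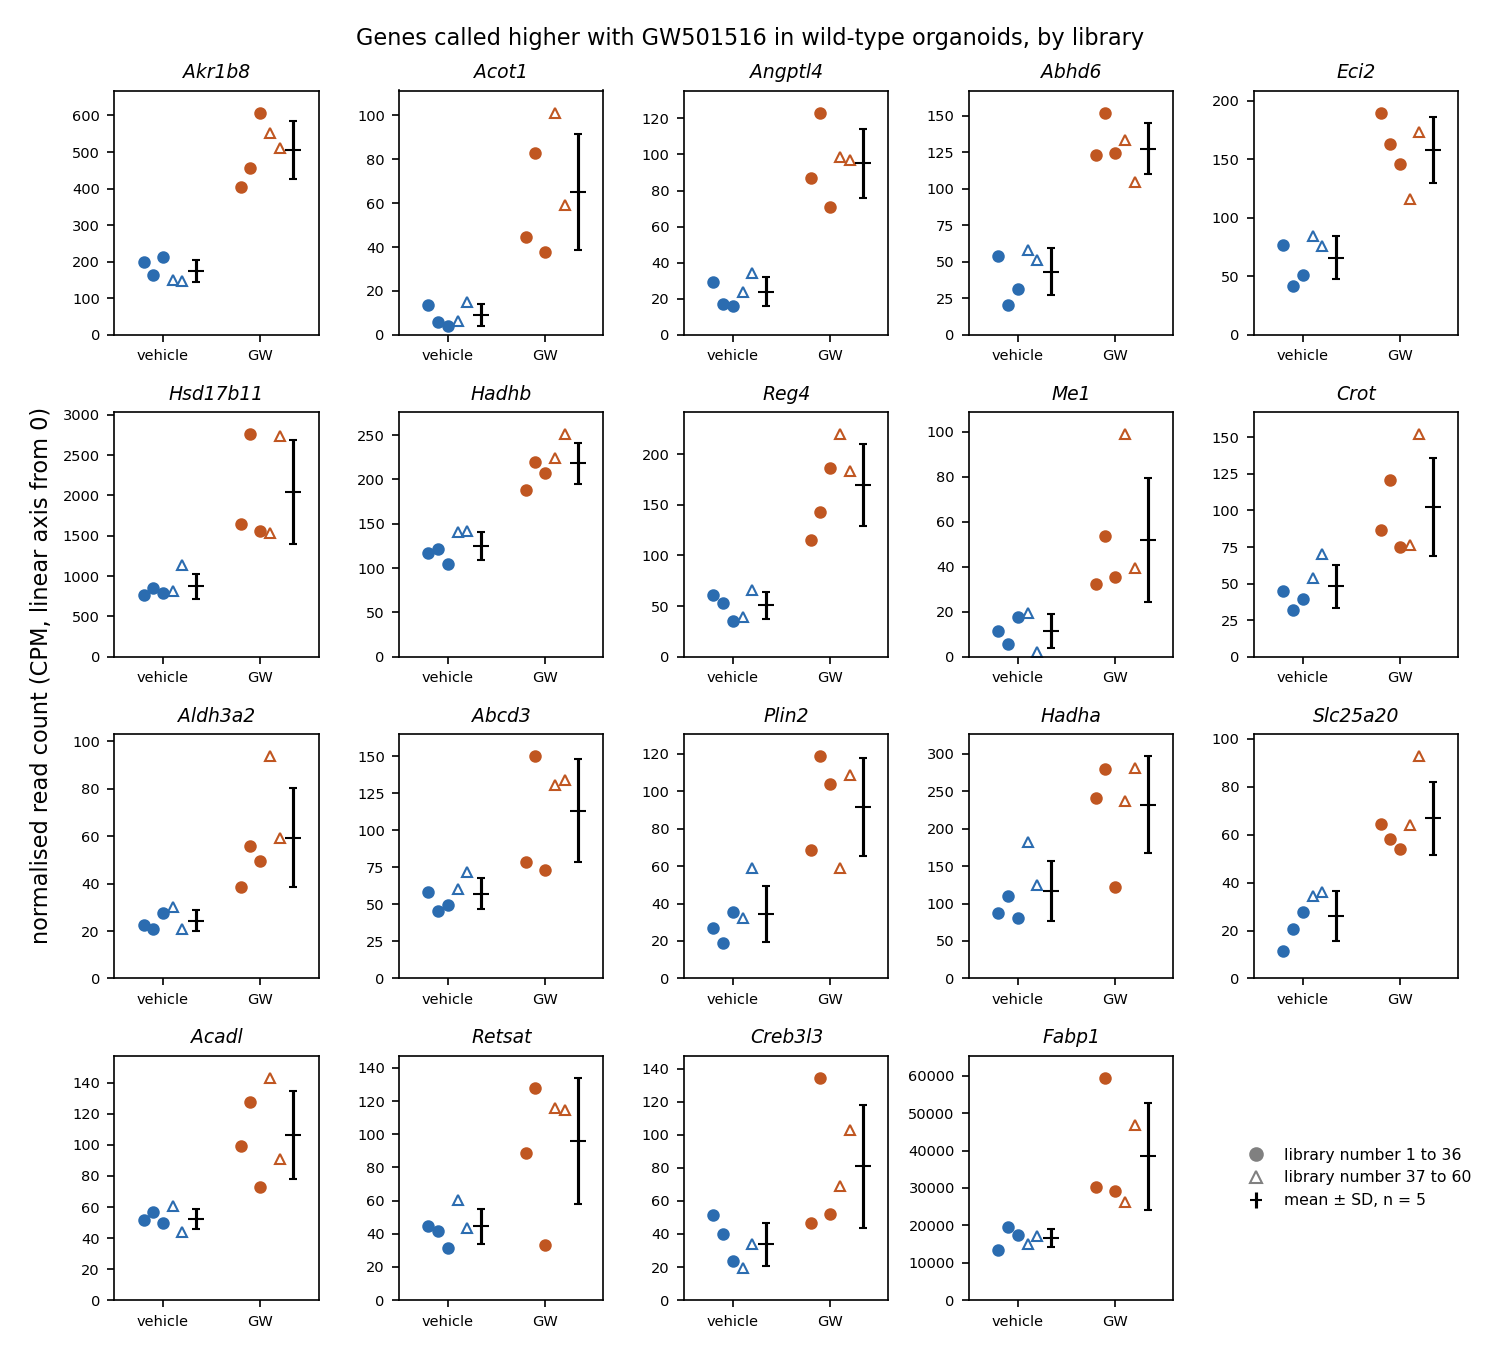
Normalised read count (CPM, the count divided by the library's total and multiplied by 1000000; linear axis from 0) of 19 genes called higher with GW, in the 5 vehicle libraries (blue) and 5 GW libraries (orange). Circles are library numbers 1 to 36 and triangles 37 to 60, and the bar is the mean ± SD. The groups overlap in Hadha, Retsat and Creb3l3 and in no other panel.

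The promoters of these genes were searched for a response element because the genes moved together. The element searched was 2 copies of AGGTCA with 1 base between them (DR1), on either strand, with at most 2 mismatches over the 12 fixed bases, in RefSeq windows from 250 bases before to 50 after each start site (GRCm38.p6, the mm10 build). Of the 20 called genes 18 had a window, and 4 of the 18 held the element (22.2%; exact binomial 95% interval 6.41% to 47.6%), against 4.46% of the 3789 genes tested with a window and 3.86% of all 32851 windows. These 4 sequences are shown because they carry that count, in the direction of the gene, with all 13 bases of the element in capitals, spacer and mismatches included.
Fabp1 (chr6:71199629-71199824, plus strand): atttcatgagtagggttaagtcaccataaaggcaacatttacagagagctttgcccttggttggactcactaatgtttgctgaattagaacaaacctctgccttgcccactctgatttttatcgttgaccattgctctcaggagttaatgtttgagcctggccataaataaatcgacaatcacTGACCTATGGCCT
Plin2 (chr4:86670222-86670309, minus strand): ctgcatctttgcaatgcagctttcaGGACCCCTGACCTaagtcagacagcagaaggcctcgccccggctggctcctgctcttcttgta
Creb3l3 (chr10:81092738-81092841, minus strand): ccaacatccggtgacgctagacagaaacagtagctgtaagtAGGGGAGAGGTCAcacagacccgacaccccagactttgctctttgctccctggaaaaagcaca
Slc25a20 (chr9:108662134-108662162, plus strand): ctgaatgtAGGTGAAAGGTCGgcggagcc
The Fabp1 match had 1 mismatch, lay on the strand opposite to the gene and ran from 67 to 55 bases before the RefSeq start. The Plin2 match, with 2 mismatches on the opposite strand, lay 225 to 213 bases before its start. In Creb3l3 the match with 2 mismatches lay on the gene's own strand, 209 to 197 bases before the downstream of 2 RefSeq starts. The Slc25a20 match lay at bases 7 to 19 after the start, so it is within the transcribed sequence, and had 2 mismatches. A match of these letters does not show a bound site. With at most 1 mismatch the share was 1 of the 18 called genes (5.56%, interval 0.141% to 27.3%). It was 0.66% of genes tested and 0.554% of windows. With at most 3 mismatches it was 44.4% of the called genes (interval 21.5% to 69.2%), 24.2% of genes tested and 24.6% of windows.

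Among genes of fatty acid binding, lipid droplets and lipases, Fabp1, Plin2 and Abhd6 rose. Fabp1, the liver-type fatty acid binding protein of enterocytes (ENSMUSG00000054422, chromosome 6, 71199827 to 71205023, mm10), took 1.35%, 1.96%, 1.76%, 1.51% and 1.72% of all counts in vehicle replicates 1 to 5 and 3.04%, 5.94%, 2.92%, 2.62% and 4.70% in GW replicates 1 to 5. Its groups did not overlap, but GW replicates 2 and 5 stood well above the other 3. The log2 fold change was 1.18 ± 0.29 (SE; adjusted p = 0.0494 by edgeR, Benjamini-Hochberg). Of the 23 other fits tried, 12 called Fabp1. Its call was lost without vehicle replicate 1, 3, 4 or 5 or GW replicate 2 or 5, with log2 fold changes of 0.94 to 1.21. Plin2, a coat protein of lipid droplets, had 27, 18.9, 35.7, 32.4 and 58.8 CPM in vehicle and 68.7, 119, 104, 59.2 and 109 with GW, and the lowest GW library lay just above the highest vehicle library. Abhd6, a lipase that cleaves monoacylglycerol (ENSMUSG00000025277, chromosome 14, 8002902 to 8056763), had 54, 20.8, 31.7, 58.4 and 51.2 CPM in vehicle and 123, 152, 125, 133 and 105 with GW. Every GW library had more than 100 CPM and no vehicle library reached 60, a log2 fold change of 1.54 ± 0.20 (adjusted p = 1.36e-06 by edgeR, Benjamini-Hochberg).

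Other members of these lists moved less. Of 4 fatty acid uptake and binding genes tested, 3 were higher and only Fabp1 was called; Fabp2, the intestinal-type binding protein, had a log2 fold change of 0.51 ± 0.19 without a call. Of 11 lipid droplet and lipase genes, 6 were higher and 5 lower, with a median of 0.07 against 0.01 over all genes, and 2 were called. Lipa, the lysosomal acid lipase, was above all vehicle libraries in all 5 GW libraries (0.81 ± 0.24) without being called, and the lipid droplet protein Hilpda had 0.83 ± 0.35. The fatty acid transporter gene Cd36 was too low to test, with 2 to 4 counts per vehicle library and 0 to 7 per GW library.

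Acot1, Angptl4, Me1 and Creb3l3 rose as well, with roles on both sides of fatty acid use. Acot1, a thioesterase that releases fatty acids from coenzyme A (ENSMUSG00000072949, chromosome 12, 84009490 to 84018371), had 13.5, 5.67, 3.96, 6.49 and 15.2 CPM in vehicle and 44.4, 82.8, 37.7, 101 and 59.2 with GW. The lowest GW library was over the highest vehicle library by more than 20 CPM, and the log2 fold change was 2.78 ± 0.34 (adjusted p = 1.05e-06 by edgeR, Benjamini-Hochberg). Acot1 has close paralogs, and how the authors' counting split reads between them is not given. Angptl4, a secreted inhibitor of lipoprotein lipase, had 29.2, 17, 15.8, 23.8 and 34.1 CPM in vehicle and 86.9, 123, 70.6, 98.7 and 96.7 with GW, with no overlap. Me1, the cytosolic malic enzyme that makes NADPH, had 11.2, 5.67, 17.8, 19.5 and 1.90 CPM in vehicle and 32.3, 53.7, 35.3, 98.7 and 39.5 with GW. GW replicate 4 was the highest for Me1, and the log2 fold change was 2.14 ± 0.39 (adjusted p = 0.00144 by edgeR, Benjamini-Hochberg). Creb3l3, a membrane-bound transcription factor of lipid metabolism, had 51.7, 39.7, 23.8, 19.5 and 34.1 CPM in vehicle and 46.5, 134, 51.8, 69.1 and 103 with GW. Its GW replicate 1 fell below vehicle replicate 1, and the call at 1.23 ± 0.30 (adjusted p = 0.0477 by edgeR, Benjamini-Hochberg) was made in 12 of the 23 other fits and lost without vehicle replicate 3, 4 or 5 or GW replicate 2 or 5 (0.94 to 1.20).

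Entry of fatty acids into mitochondria runs through acylcarnitines, and all 4 carnitine shuttle genes tested were higher, with a median log2 fold change of 1.104. Slc25a20, the carrier that exchanges acylcarnitine for carnitine across the inner membrane, had 11.2, 20.8, 27.7, 34.6 and 36 CPM in vehicle and 64.6, 58.2, 54.2, 64.1 and 92.8 with GW. The groups did not overlap and the log2 fold change was 1.31 ± 0.28 (adjusted p = 0.009 by edgeR, Benjamini-Hochberg). The call was lost without vehicle replicate 1 (1.13) or GW replicate 5 (1.16). Crot, which makes carnitine esters of medium-chain acids in peroxisomes, had 45, 32.1, 39.6, 54.1 and 70.2 CPM in vehicle and 86.9, 121, 75.3, 76.5 and 152 with GW, so that GW replicates 3 and 4 lay only a little above vehicle replicate 5. Cpt1a, the rate-setting enzyme of mitochondrial import, had 27, 11.3, 15.8, 25.9 and 20.9 CPM in vehicle and 28.3, 38.1, 18.8, 56.7 and 43.4 with GW. Its groups overlapped through GW replicate 3, and its log2 fold change of 0.84 ± 0.28 was not called (adjusted p = 0.355 by edgeR, Benjamini-Hochberg). Cpt2, its partner on the inner membrane, had 1.14 ± 0.38 and was not called.

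Mitochondrial fatty acid oxidation had 11 of 15 members higher, 4 of them called, and a median of 0.32. Over all genes tested 2505 of 4902 were higher and 20 were called. The called enzymes were Hadha and Hadhb, the subunits of the trifunctional protein, Acadl, the long-chain acyl-CoA dehydrogenase, and Eci2, an enoyl-CoA isomerase. Hadhb had 117, 121, 105, 141 and 142 CPM in vehicle and 188, 219, 207, 225 and 251 with GW, a narrow rise with no overlap (0.76 ± 0.13). Hadha had 87.7, 109.7, 81.2, 182 and 125 CPM in vehicle and 240.4, 279.8, 122, 237 and 280.3 with GW, and its GW replicate 3 fell among the vehicle libraries (0.95 ± 0.19). Eci2 had 76.5, 41.6, 51.5, 84.3 and 75.8 CPM in vehicle and 189.9, 163, 146, 116 and 174 with GW, without overlap (1.25 ± 0.17). Acadl had 51.7, 56.7, 49.5, 60.5 and 43.6 CPM in vehicle and 99, 128, 73, 143 and 90.8 with GW, without overlap (0.97 ± 0.22), but it lost its call without vehicle replicate 1, 3 or 5 or GW replicate 2 or 4 (0.87 to 0.96). The very-long-chain dehydrogenase Acadvl (0.76 ± 0.21) missed the threshold, with GW replicate 3 again among the vehicle libraries, and was called without that library (0.88). Acaa2, the last thiolase of the spiral, had 0.32 ± 0.16. The medium-chain dehydrogenase Acadm had -0.19 ± 0.19 and the enoyl-CoA hydratase Echs1 -0.31 ± 0.14, neither called.

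In peroxisomes, which shorten the longest fatty acids, 10 of 12 genes tested were higher, with a median of 0.33. Abcd3, a transporter of acyl-CoA across the peroxisomal membrane, was the only one of these 12 called. The called gene Crot, also peroxisomal, was counted with the carnitine shuttle. Abcd3 had 58.5, 45.4, 49.5, 60.5 and 72.1 CPM in vehicle and 78.8, 149.99, 73, 131 and 134 with GW, and GW replicates 1 and 3 lay just above the highest vehicle library (0.95 ± 0.18). Acaa1b, a peroxisomal thiolase, was seen in only 2 vehicle libraries, at 1.89 and 10.8 CPM in replicates 2 and 4, and in all 5 GW libraries at 16.2, 24.6, 7.06, 22.2 and 17.8 CPM. It missed the threshold (2.68 ± 0.72, adjusted p = 0.0992 by edgeR, Benjamini-Hochberg). Acaa1b was called without vehicle replicate 4 (4.51), by limma-trend (1.82) and with no filter on low counts (2.65). Ech1 (0.44 ± 0.12) and Hsd17b4 (0.73 ± 0.24) were not called, and the bifunctional enzyme Ehhadh had 0.08 ± 0.31. Of 9 genes of peroxisome biogenesis and membrane 6 were higher, and none was called (4 of 9 were higher by limma-trend), with Pxmp4 (0.80 ± 0.29) at the lowest p.

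Enzymes that handle aldehydes, sterols and retinoids made up another group, and they include the described gene with the lowest p. Akr1b8, an aldo-keto reductase that reduces aldehydes (ENSMUSG00000029762, chromosome 6, 34354119 to 34368463), had 200.2, 165, 212, 149 and 148 CPM in vehicle and 404, 457, 607, 553 and 511 with GW. The groups were far apart, with means of 175 ± 29.6 and 506 ± 79.6 CPM (SD, n = 5 each), and the log2 fold change was 1.49 ± 0.17 (adjusted p = 2.76e-07 by edgeR, Benjamini-Hochberg). Akr1b8 was called in all 23 other fits, although it has close paralogs among which reads may be split. Hsd17b11, a short-chain dehydrogenase that sits on lipid droplets (ENSMUSG00000029311, chromosome 5, 103989762 to 104021919), had 760.5, 855, 784, 817 and 1138 CPM in vehicle and 1644, 2756, 1556, 1532 and 2739.6 with GW. GW replicates 2 and 5 were the highest, as they were for Fabp1, and the log2 fold change was 1.21 ± 0.18 (adjusted p = 5.96e-05 by edgeR, Benjamini-Hochberg).

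Aldh3a2, which oxidises fatty aldehydes to fatty acids, had 22.5, 20.8, 27.7, 30.3 and 20.9 CPM in vehicle and 38.4, 56, 49.4, 93.8 and 59.2 with GW, without overlap (1.22 ± 0.23). Retsat, a retinol saturase, had 45, 41.6, 31.7, 60.5 and 43.6 CPM in vehicle and 88.9, 128, 33, 116 and 114 with GW, and its GW replicate 3 stayed at the vehicle level (1.07 ± 0.25; adjusted p = 0.0254 by edgeR, Benjamini-Hochberg). Retsat was called in 11 of the 23 other fits and not without vehicle replicate 1, 2, 3 or 5 or GW replicate 2, 4 or 5 (0.92 to 1.09). Over the whole list of fatty aldehyde, aldo-keto and short-chain dehydrogenases, 16 of 25 were higher and 9 lower, with a median of 0.12 and 3 called. Members went both ways. Hsdl2 (1.26 ± 0.32) was above vehicle in 4 of 5 libraries without a call. Akr1c14, a hydroxysteroid dehydrogenase, had 13.5, 34, 17.8, 41.1 and 20.9 CPM in vehicle and 4.04, 13.4, 4.71, 9.87 and 7.90 with GW. All its GW libraries lay below all vehicle libraries, and at -1.70 ± 0.44 it missed the threshold (adjusted p = 0.0907 by edgeR, Benjamini-Hochberg). Akr1c14 was called lower by DESeq2 (-1.738) and with no filter on low counts (-1.740).

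Reg4, a secreted lectin of the regenerating islet-derived family found in secretory cells of the gut (ENSMUSG00000027876, chromosome 3, 98222156 to 98236748), was the called gene furthest from lipid metabolism. It had 60.7, 53, 35.7, 38.9 and 66.4 CPM in vehicle and 115, 143, 186, 219.6 and 184 with GW. No GW library overlapped the vehicle range, and the log2 fold change was 1.68 ± 0.30 (adjusted p = 0.0013 by edgeR, Benjamini-Hochberg). The other 8 members of its list of lectins and galectins were not called, and the list's median was 0.06. Markers of secretory cells were measured beside it: 8 of 8 enteroendocrine markers tested were higher (median 0.36; 7 of 8 by limma-trend) and 9 of 9 goblet markers were higher (median 0.23), and none was called. The summed level of 25 enteroendocrine markers was 175.9 to 285.7 CPM in vehicle and 259.7 to 352.8 with GW, and that of 17 goblet markers was 3144 to 5287 and 3642 to 4925 CPM. Their part in the Reg4 result was not tested.

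**Figure D2:**
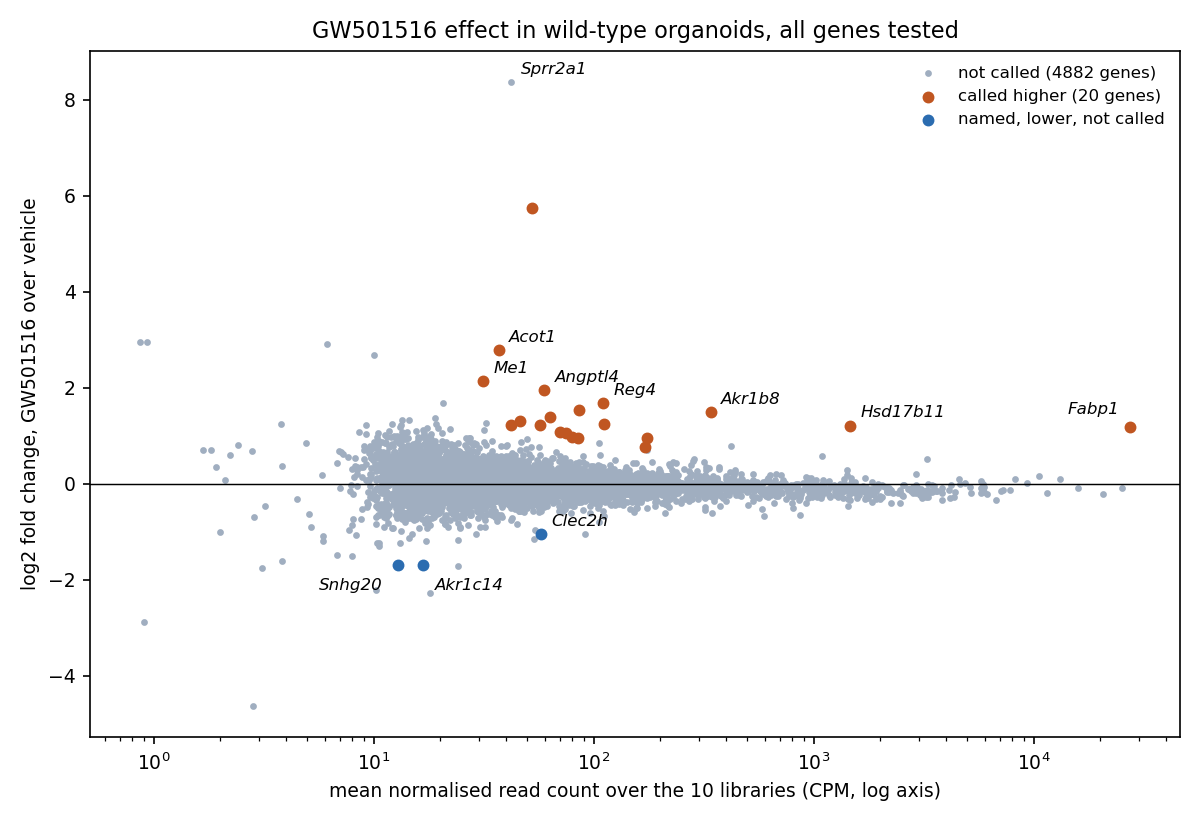
Log2 fold change of GW over vehicle (vertical axis) against mean CPM over the 10 libraries (horizontal log axis) for all 4902 genes tested. The 20 called genes (orange) are all above 0. The 3 lower genes in blue, Clec2h, Akr1c14 and Snhg20, were not called.

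Genes lower with GW stopped short of the threshold. Clec2h, a C-type lectin-like gene, had 49.5, 69.97, 83.2, 80.00 and 102 CPM in vehicle and 54.5, 35.8, 37.7, 29.6 and 31.6 with GW, and 4 of 5 GW libraries lay below all vehicle libraries. Its log2 fold change of -1.05 ± 0.26 had an adjusted p of 0.05004 (by edgeR, Benjamini-Hochberg), just outside, and 10 of the 23 other fits called it, among them those without GW replicate 1 or vehicle replicate 1. Fabp1 was the last gene inside. Slc13a1, a sodium-sulfate cotransporter, had 27, 37.8, 45.6, 32.4 and 28.4 CPM in vehicle and 18.2, 17.9, 18.8, 19.7 and 21.7 with GW, without overlap (-0.87 ± 0.26). Cops6, a subunit of the COP9 signalosome, was also lower in every GW library (-0.62 ± 0.16). Hpgd, which inactivates prostaglandins (-0.91 ± 0.29), the glucuronosyltransferase Ugt2a3 (-0.71 ± 0.23) and the noncoding Snhg20 (-1.69 ± 0.52) were lower with overlap, and 3 of the 10 lower genes with the lowest p were predicted or unnamed. The remaining higher genes next to the threshold had varied roles: Mllt3 (1.38 ± 0.34), a chromatin reader, Slc6a6 (0.77 ± 0.20), the taurine transporter, Hsd17b7 (0.93 ± 0.25), a sterol enzyme, Rab9 (0.60 ± 0.16), Faim (1.07 ± 0.29), Nus1 (0.95 ± 0.26), Coro1c (0.90 ± 0.26) and Tgoln1 (0.59 ± 0.17). Leaving out 1 library brought some of these in: Mllt3, Slc6a6 and Snhg20 without GW replicate 1, Slc6a6 and Hsd17b4 without GW replicate 3, Hsd17b7 and Cops6 without vehicle replicate 4, Hsdl2 without vehicle replicate 3 or GW replicate 4, and Hpgd without GW replicate 5.

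Some genes were too low for the test. Cyp4a10, a fatty acid hydroxylase, had 0 counts in all 5 vehicle libraries and 3, 10, 1, 1 and 8 counts in GW replicates 1 to 5. Set against a floor of 3 counts over the vehicle group, it was at least 8.30-fold higher. Pdk4, the kinase that shuts pyruvate dehydrogenase, had 0 counts in vehicle and 2, 1, 2, 4 and 0 with GW, at least 3.25-fold higher on the same floor. Tnip1 (11 counts with GW), Map7d1 (8) and Dlg5 (7) were also at 0 in vehicle. Lepr, the leptin receptor, had 1, 6, 5, 0 and 4 counts in vehicle and 0 with GW, at least 4.92-fold lower against 3 counts over the GW group, and the other 4 genes picked for 0 with GW were pseudogenes. These were picked as the extremes of all untested genes, and floors cover counting error only. The receptors themselves were low: Ppara had 9, 11.3, 17.8, 23.8 and 24.7 CPM in vehicle and 22.2, 11.2, 4.71, 22.2 and 21.7 with GW (-0.11 ± 0.42), and Ppard had 4 counts over the vehicle libraries and 7 over the GW libraries. Pparg, which encodes PPARγ, had 0.12 ± 0.30. Of 8 receptors and cofactors tested 4 were higher and none was called.

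Other pathways that handle lipid and fuel were described by the same counts, beside 2505 higher and 2395 lower of all 4902 genes tested. Fatty acid synthesis had 11 of 13 members higher (median 0.23), with Me1 called and the desaturase Scd1 (0.84 ± 0.26) and the elongase Elovl6 (0.58 ± 0.22) not. Triglyceride assembly and chylomicrons had 9 of 14 higher (median 0.26) and 0 called, with the apolipoproteins Apoc2 (0.79 ± 0.23) and Apoa4 (0.69 ± 0.29) and the lipid transfer protein Mttp (0.52 ± 0.20) at the lowest p. Acyl-CoA synthetases and thioesterases had 4 of 7 higher (median 0.01), with Acsl3 (1.13 ± 0.33) next to Acot1. Cholesterol synthesis and uptake had 12 of 23 higher, a median of 0.00 and no call, so that Hsd17b7 had no matching shift in the list. Among known PPAR targets outside oxidation 7 of 8 tested were higher and 3 were called, Angptl4 and Creb3l3 among them. Txnip (0.83 ± 0.35) and Vnn1 (0.81 ± 0.35) were not called.

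No gene tested in the citric acid cycle and respiratory chain lists was called by edgeR. Pyruvate entry and the citric acid cycle had 11 of 26 members higher and 15 lower (median -0.05), and the pyruvate carrier Mpc1 (-0.35 ± 0.13) was lower in every GW library. Complex I had 33 of 37 subunits lower (median -0.14), complexes III and IV 22 of 23 (median -0.23), and ATP synthase 16 of 17 (median -0.18), with 0 called in each by edgeR and 1, 2 and 0 members at an unadjusted p under 0.05. Those were Ndufv2 (-0.23 ± 0.11), Cox14 (-0.42 ± 0.18) and Uqcrc1 (-0.31 ± 0.15). Cytoplasmic ribosomal proteins were lower in 79 of 79, with a median of -0.15 and 0 called, and Rpl9 (-0.26 ± 0.12) alone was under an unadjusted p of 0.05. With library totals in place of TMM scaling 74 of the 79 were lower (median -0.11), and the median of all genes moved from 0.01 to 0.05. In library numbers 1 to 36 the ribosomal median was -0.07 with 11 of 79 higher, and in 37 to 60 it was -0.26 with 0 higher. Their summed level was 218685, 221447, 227819, 199436 and 195083 CPM in vehicle replicates 1 to 5 and 216974, 197728, 219706, 178344 and 166411 with GW, so GW replicates 4 and 5 lay below every vehicle library. Complex I had medians of -0.10 and -0.27 in the first and second run, complexes III and IV -0.18 and -0.29, and ATP synthase -0.15 and -0.29. The share of counts taken by Fabp1 alone was higher in every GW library than in any vehicle library, as given above. Among GW libraries it was lowest in replicate 4 (2.62%) and highest in replicate 2 (5.94%). The part of Fabp1 in these small shifts was not tested. Transcripts of the mitochondrial genome, in contrast to the nuclear subunits, had 9 of 15 higher and a median of 0.05.

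Lists of detoxification, stress and growth had no calls. Xenobiotic enzymes had 22 of 32 lower (median -0.14), with Sult1b1 (-0.39 ± 0.16) and Cyp4f14 (-0.58 ± 0.24) lower and the P450 reductase Por (0.87 ± 0.28) higher. Heme and iron handling had 8 of 11 lower (median -0.12), among them Cpox (-0.47 ± 0.21), and branched-chain amino acid breakdown 7 of 9 (median -0.08), among them Pccb (-0.72 ± 0.28). Antioxidant and glutathione genes had a median of -0.02, with Txnrd1 at 0.56 ± 0.18. Cell cycle and DNA replication had 17 of 24 higher (median 0.08), with Mcm7 (0.61 ± 0.24) and Top2a (0.35 ± 0.17) at the lowest p. The unfolded protein and integrated stress response had 11 of 15 higher and a median of 0.03.

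By cell type, stem cell markers had 7 of 11 lower (median -0.12), with Olfm4 (-0.35 ± 0.28) and Ascl2 (-0.41 ± 0.21) lower, and none was called. Paneth markers had 8 of 13 lower (median -0.05). Enterocyte markers divided evenly, 11 higher and 11 lower, with a median of 0.01. Fabp1, Fabp2, Apoa4 and Mttp were higher, of which only Fabp1 was called. The sucrase-isomaltase gene Sis (-0.60 ± 0.27), Slc26a6 (-0.45 ± 0.20) and Sult1b1 (-0.39 ± 0.16) were lower and not called. Among enteroendocrine markers Chgb (0.75 ± 0.26) and Cck (0.99 ± 0.45) had the lowest p, with the hormone genes Gcg (0.54 ± 0.37) and Gip (0.36 ± 0.28) behind them. For goblet cells these were Clca1 (0.59 ± 0.38) and Zg16 (0.39 ± 0.26).

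**Figure D3:**
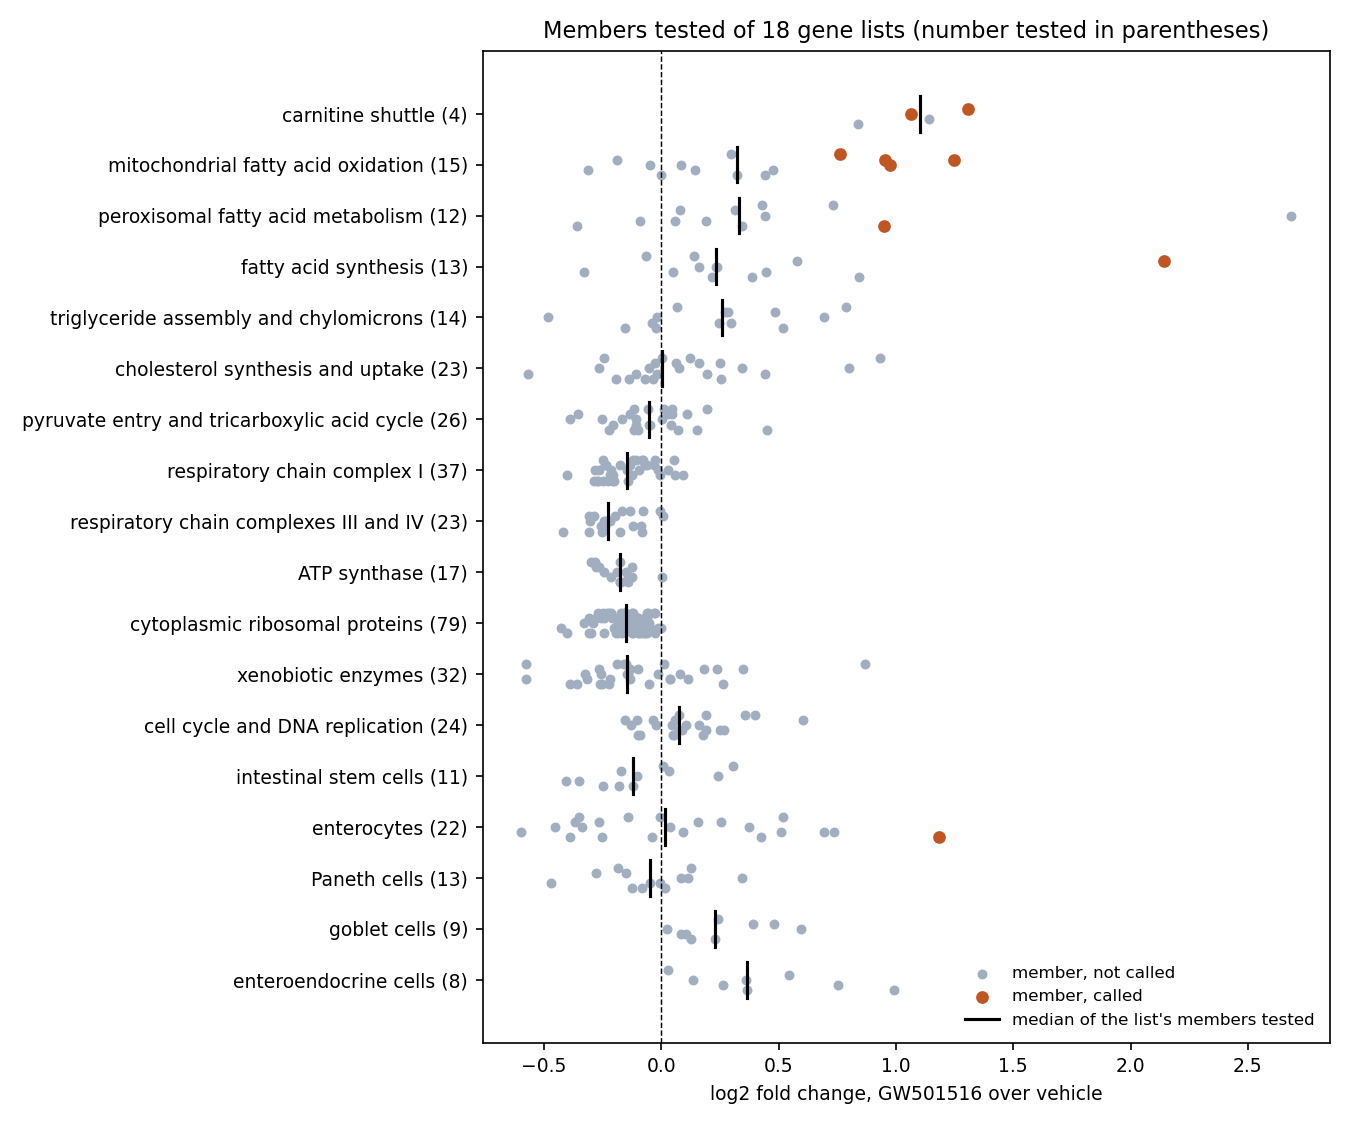
Log2 fold changes of GW over vehicle (horizontal axis) for the members tested of 18 gene lists (rows), with called members in orange and the median of each list as a black bar. Carnitine shuttle genes lie around 1.104, while the ribosomal protein and respiratory chain lists lie a little below 0.

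The response was also read within each run of library numbers. All 20 called genes were higher in both runs, with medians of 1.31 in numbers 1 to 36 (3 against 3) and 1.09 in 37 to 60 (2 against 2), although only 11 and 6 of them were called there. Plin2 had 1.80 in the first run and 0.83 in the second, Abhd6 1.91 and 1.04, and Me1 1.76 and 2.61. A test of the difference between the runs called 0 of the 4902 genes by edgeR (0%), with 220 at an unadjusted p under 0.05. Glycolysis went opposite ways in the runs: the median of its 16 members was 0.29 in the first and -0.51 in the second, and -0.03 in all libraries. Ldha, lactate dehydrogenase, had 0.30 and -0.75, Tpi1 0.28 and -0.87, and Gapdh 0.22 and -0.64. These 3 were among 7 genes called lower within the second run alone, with the hypoxia-responsive Ankrd37 (-3.01) and the ribosomal Rplp1 (-0.58) among the rest (Ankrd37 also with no filter on low counts), but the difference between runs was not called for any of the 7. Apoc2 and Tm4sf4, at 1.03 and 0.78, were called higher there; Tm4sf4 was called in no other fit, and Apoc2 also with no filter on low counts (0.74) and without columns with the suffix 2 (0.91). Sprr2a1, a cornified envelope gene named after its values were seen, went the other way: it was at 0 in all vehicle libraries, at 62.6, 141 and 217 CPM in GW replicates 1 to 3 and at 0 in GW replicates 4 and 5, and it was called only with no filter on low counts. In the 6 libraries where Y-linked counts exceeded Xist, 8 of the 20 genes were called and no other. The libraries with more Xist, replicates 2 and 3 of each treatment, all had numbers 1 to 36. A difference between the runs and one that goes with Xist and Y-linked counts therefore cannot be told apart here.

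**Figure D4:**
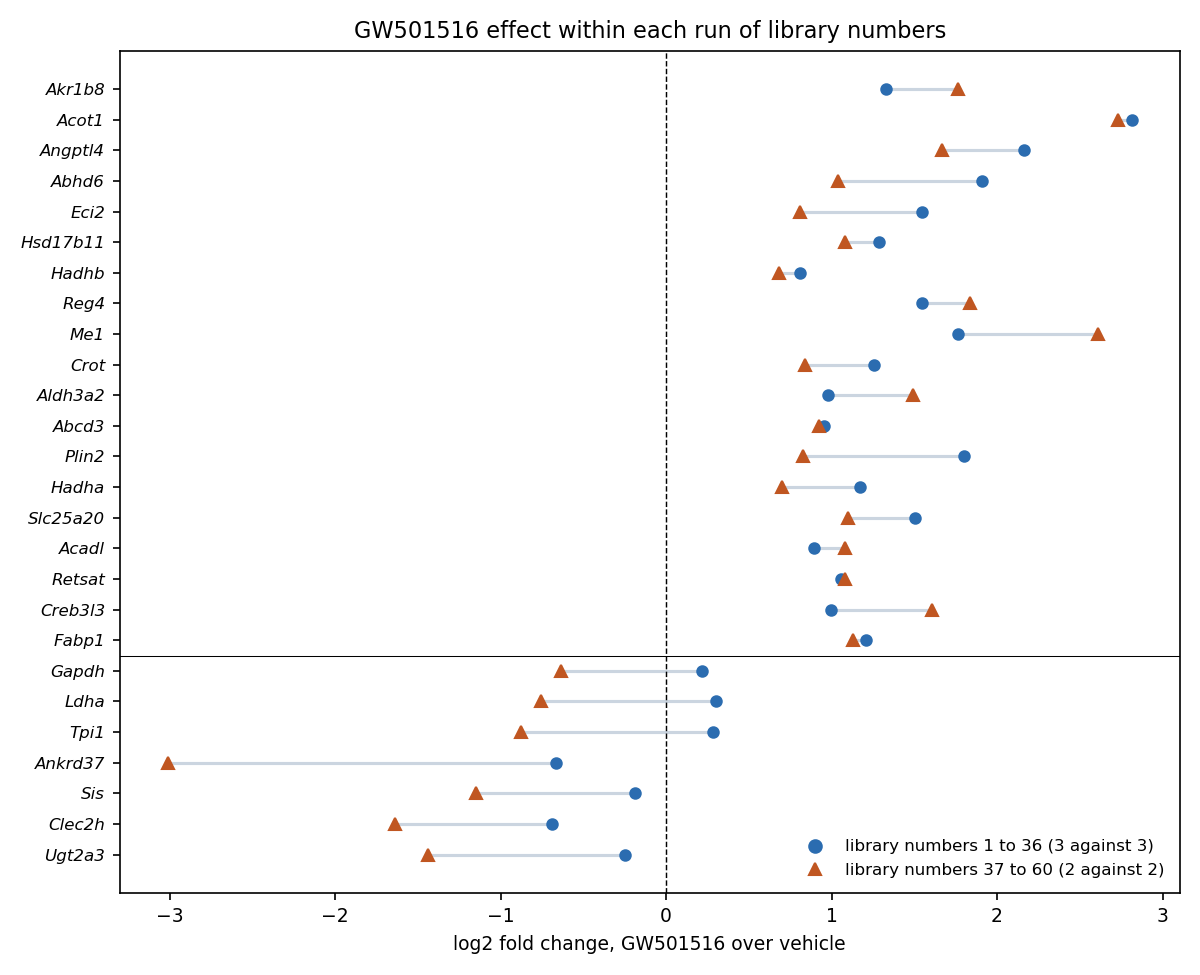
Log2 fold change of GW over vehicle within library numbers 1 to 36 (circles) and 37 to 60 (triangles). Above the line are the 19 genes called in all libraries, right of 0 in both runs, and below it 7 genes chosen after the runs were seen, of which Gapdh, Ldha and Tpi1 lie on both sides of 0.

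The response in wild type was also compared with that in the organoids labelled DA, D and A. The labels name no recombinase for the floxed Ppard allele, and loss of Ppard was not checked here. The differences are therefore between labelled genotypes, and dependence on PPARδ was not tested. The response in wild type exceeded that in DA for 4 of 4902 genes (0.0816%), all called in wild type as well: Acot1, Angptl4, Abhd6 and Reg4. In DA their log2 fold changes were -0.59, 0.01, -0.26 and -0.31. Acot1 differed by 3.37 ± 0.49 (adjusted p = 0.000166 by edgeR, Benjamini-Hochberg) and Abhd6 by 1.80 ± 0.29 (adjusted p = 0.00065). Angptl4 differed by 1.94 ± 0.35 (adjusted p = 0.00346 by edgeR, Benjamini-Hochberg) and Reg4 by 1.99 ± 0.42 (adjusted p = 0.0365). The difference for Akr1b8 was 1.09, for Hsd17b11 1.13 and for Fabp1 1.20, and none of these was called. The call for Reg4 held without GW replicate 1 or vehicle replicate 5 and was lost without any of the other 8 libraries, while Akr1b8 was called without GW replicate 1 (1.16) or vehicle replicate 3 (1.18) and Hsd17b11 without GW replicate 4 (1.23). The called genes were picked for their rise in wild type, which is part of the difference, so their 19 of 20 intervals above 0 describe them and are no test.

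Against D and against A, 0 genes were called by edgeR (0% each), with 158 and 163 genes at an unadjusted p under 0.05, and limma-trend called 1 and 0 and DESeq2 0 and 0. Of the 20 called genes, 8 had a 95% interval of the difference above 0 against D and 3 against A. The called genes were picked for their rise in wild type here too, so these counts are no test. For Acot1 the interval of the wild type minus D difference was 0.65 to 2.75, and for Reg4 it was 0.61 to 2.47. For Hadhb the interval against D held 0, at -0.14 to 0.69. Against A the interval was -0.30 to 0.67 for Akr1b8, -0.91 to 0.72 for Fabp1 and -0.42 to 0.34 for Hadhb. The 3 intervals above 0 against A were those of Acot1 (0.04 to 2.12), Abhd6 and Hsd17b11. Intervals that hold 0 do not show that the responses were alike.

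**Figure D5:**
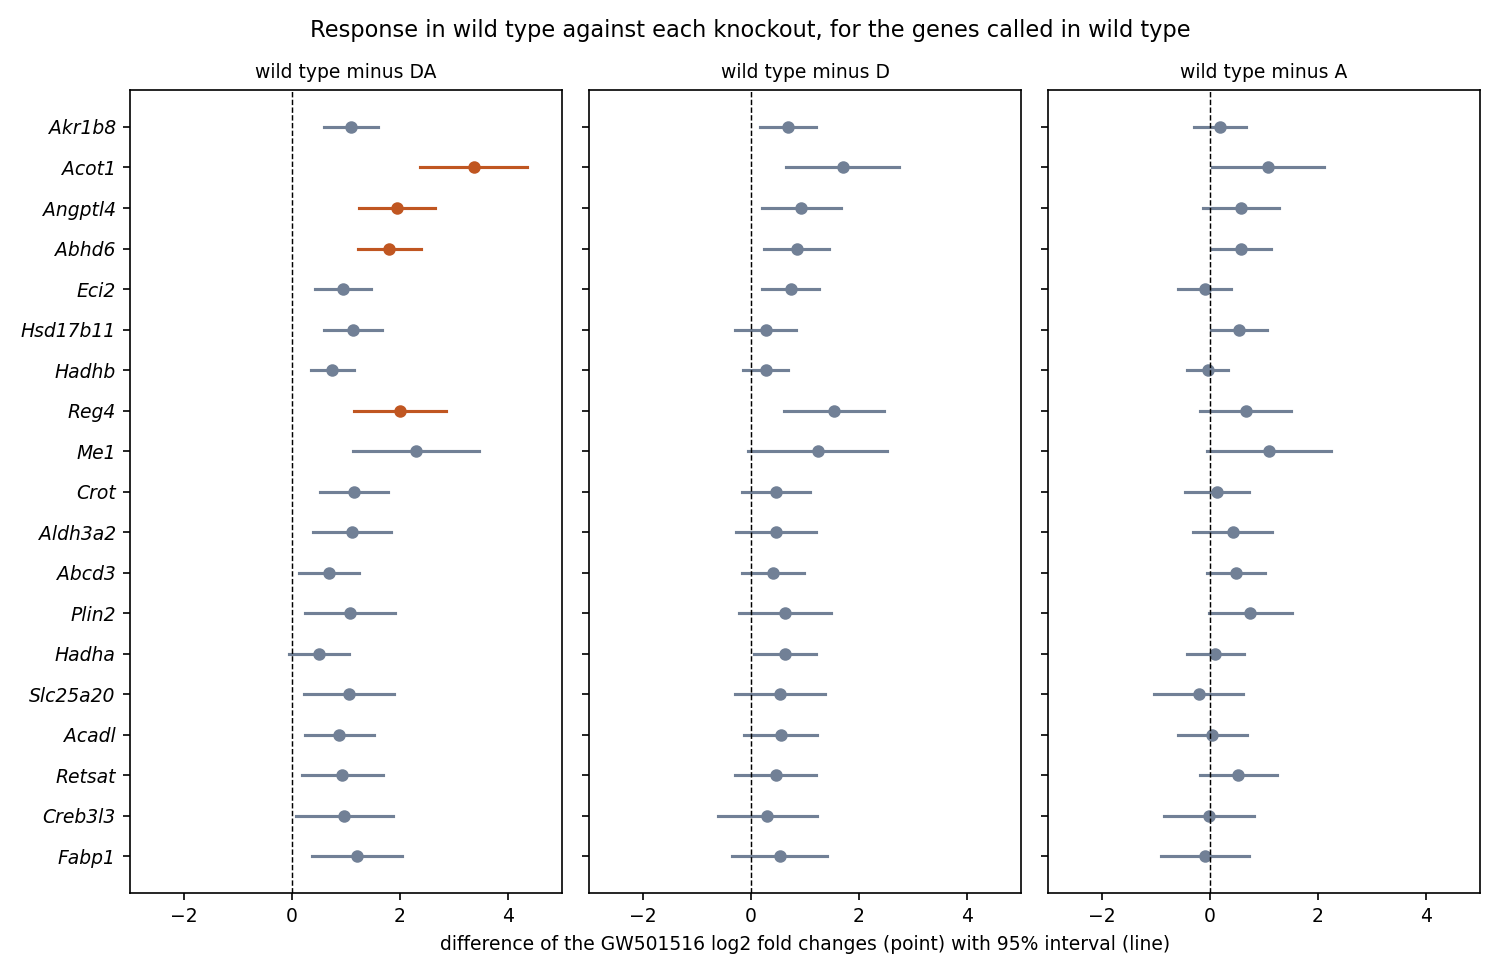
Difference between the GW log2 fold change in wild type and in DA, D or A (point) with its 95% interval (line) for 19 genes called in wild type. Orange marks the 4 differences called over all genes, all against DA; the intervals reach 0 for 12 of the 19 genes against D and 16 of the 19 against A.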

How the data were processed

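Values deposited by the authors are counts, whole numbers for each Ensembl gene and library. Salmon 1.1.0, edgeR 3.26.8, R 3.6.2 and build mm10 are named in the submitters' processing notes; handling of molecular identifiers is not given in the sources used here. A column got its group from the treatment and genotype its name holds, and 20 of 57 columns went unused. CPM is the count divided by the library's total and multiplied by 1000000. Genes passing filterByExpr by group were fitted over all 8 groups (37 libraries, TMM scaling) with the quasi-likelihood test of edgeR 4.0.16 under R 4.3.3, after a check on simulated data. P-values were adjusted by Benjamini-Hochberg over 4902 genes, with calls at an adjusted p under 0.05. Alternatives used DESeq2 1.42.0, limma 3.58.1, other scalings and filters, each run of library numbers, and fits without 1 library. No pair of wild-type libraries in a group agreed within sampling noise.

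Symbols and positions came from the GENCODE annotation of mm10. The genes, lists and tests were chosen with earlier results of these data known, so nothing here is independent support for them. Genes in the text are all called genes, the 15 with the next lowest p, the 10 lowest among lower genes, fixed reference genes, up to 5 members per list (for cell types also by mean CPM), and up to 5 untested genes at 0 in either treatment; others were chosen after their values were seen. Some genes, 1 of them called, and 1 list are counted but not reported here, and not each of the 43 lists is described.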

Additional observations from a re-analysis of the deposited data

Results flagged for a closer look

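The response to GW501516 differed between wild type and DA, by the test of the difference itself, for Acot1 (3.37 in log2), Reg4 (1.99), Angptl4 (1.94) and Abhd6 (1.80).

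In 11 cases among the genes described, 1 library of a group of 5 stood far from the other 4; chance gives about 1 in 20 such groups, and 192 groups were looked at. GW replicate 3 was low for Hadha (122 CPM), Acadvl (40.03 CPM) and Tgoln1 (70.6 CPM). Vehicle replicate 4 was high for Mllt3 (12.97 CPM), Acaa1b (10.8 CPM) and Top2a (138 CPM). Vehicle replicate 1 was high for Coro1c (31.5 CPM) and Cck (13.5 CPM), and vehicle replicate 5 for Hsd17b11 (1138 CPM). Among other GW libraries, replicate 5 was high for Slc25a20 (92.8 CPM) and replicate 1 low for Apoc2 (329 CPM).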

How the results depend on the processing

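The 20 genes called higher became 11 in library numbers 1 to 36, 8 in 37 to 60, and 8 in the 6 libraries with more Y-linked than Xist counts, a choice made after seeing the data, as was the test between runs. In the other fits they numbered 15 (only the 2 wild-type groups) to 29 (no filter), and 16 to 23 without 1 library. Genes called lower, 0 at first, numbered 16 with no filter, 7 in library numbers 37 to 60, 2 by DESeq2 and without columns with the suffix 2, and 1 with library totals, with limma-trend, with a mean count of at least 10, without GW in D and with a term for library numbers, and 0 to 2 without 1 library. The 4 genes called in wild type against DA became 7 by DESeq2, 20 with no filter, 2 in numbers 1 to 36, 0 in 37 to 60 and 1 in the 6 libraries with more Y-linked counts, and 3 to 5 without 1 library. Against D, where 0 were called, there was 1 by limma-trend and 12 with no filter. Against A there were 8 with no filter and 1 in numbers 37 to 60. The share of called genes with a promoter match fell from 22.2% to 5.56% (1 of 18) with at most 1 mismatch. That of all genes tested fell from 4.46% to 0.66%. The cause of these shifts was not tested.

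Directions turned for 6 genes that were not called. In numbers 1 to 36 Gapdh had 0.22, Ldha 0.30 and Tpi1 0.28. Ehhadh had -0.39 in numbers 37 to 60 and -0.14 in the 6 libraries with more Y-linked counts, and -0.14 to 0.22 without 1 library (below 0 without GW replicate 2 or vehicle replicate 3). Ppara had 0.15 in those 6 libraries and -0.27 to 0.09 without 1 library (0.00 without vehicle replicate 4, just above 0, and above 0 without GW replicate 3 or vehicle replicate 5), and Pparg -0.10 (without vehicle replicate 5) to 0.26. Of 2114 comparisons for 93 genes, 1984 kept direction and call, 71 lost a call and 47 gained one. Most of the 93 genes were not called at first, and a gene that was not called has no call to lose. All 71 losses therefore fell on the called genes, and the 1984 do not measure how stable their calls were. At 405302 to 528776 counts per library, 4902 of 20192 genes had enough counts for the test. No paired analysis was possible because the columns carry no replicate number that joins a vehicle to a GW library.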
